A study of Mus musculus with 32 samples.

Results

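The galectins of mouse quadriceps muscle, including galectin-3, are described here through 6 of the 53801 gene IDs in the expression tables: Lgals1, Lgals3, Lgals4, Lgals8 and Lgals9, which encode galectins, and Lgals3bp, which encodes a secreted glycoprotein that binds galectins and is not a galectin itself. They were chosen by gene name, with genotype differences of these genes in these libraries already known. Their genotype differences and their change with age in the knockout are therefore given as a description, with no p-value of a gene. Counts of members called by the main model stand beside the share over all genes. Counts under alternative fits do not always have a count over all genes beside them. Nothing is read from any of these counts. The differences of the 6 genes with age in wild type and between the sexes were not part of that choice and were tested. Wild-type (WT) mice were set against mice with both copies of Col6a2 knocked out by the allele Col6a2tm1(KOMP)Vlcg (Col6a2-/-), which takes away a chain of collagen VI, a matrix protein around muscle fibres. The allele came in a C57BL/6N strain and was backcrossed for 5 generations to C57BL/6J, so the background of both genotypes may still be mixed, and WT and Col6a2-/- mice came from heterozygous breeders. Female and male mice were killed at 5 or 25 weeks of age, which gave 8 groups of 4 mice and 32 libraries. The knockout is constitutive, RNA came from cryosections of whole quadriceps, and the labels do not say which mice were littermates.

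Galectins are lectins that bind sugars carrying β-galactoside on glycoproteins. They lack a signal peptide, and act both inside cells and, after an unconventional route of release, on the cell surface and the matrix, where they crosslink receptors. Galectin-1, from Lgals1, is a dimer made by fibroblasts, vessels and muscle precursors. Galectin-3, from Lgals3, has 1 sugar-binding domain and a collagen-like tail through which it assembles into larger complexes, and is made in large amounts by macrophages, including those that clear damaged muscle. Galectin-4, galectin-8 and galectin-9 each carry a pair of sugar-binding domains in 1 chain; galectin-4 is best known in the gut epithelium, galectin-8 marks damaged lysosomes and endosomes, and galectin-9 and Lgals3bp are known to be induced by interferons.

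DNA before the RefSeq start is shown for the 3 genes with the largest genotype difference at 5 weeks, because data on interferon genes and macrophage genes are set beside them below. The sequences are from RefSeq on GRCm38.p6, read 5′ to 3′ on the strand of the gene, and promoter entries were used for 5 of the 6 genes. The 250 bases before each start were searched on both strands for 7 motifs: the interferon-stimulated response element (GAAA, any 2 bases, GAAA), the interferon regulatory factor element AANNGAAA that lies within it, the gamma-activated site TTCNNNGAA, the AP-1 site TGANTCA, the Smad box CAGACA, the PU.1 site GAGGAAG and the E-box CANNTG. Bases that GENCODE places in an untranslated region are left out of the runs of Lgals3 and Lgals9, which therefore differ in length. The run of Lgals3 lies before the RefSeq start but inside the gene's GENCODE span. For Lgals3bp only the 24 bases around its interferon motif are shown; they too lie inside the GENCODE span, in an annotated untranslated region, and the 117 bases upstream of that span held no such motif. Capitals mark the Smad box in Lgals3, both interferon motifs in Lgals9 and the interferon regulatory factor element in Lgals3bp, and E-boxes and PU.1 sites are not marked.
Lgals3, chr14:47373610-47373812, plus strand: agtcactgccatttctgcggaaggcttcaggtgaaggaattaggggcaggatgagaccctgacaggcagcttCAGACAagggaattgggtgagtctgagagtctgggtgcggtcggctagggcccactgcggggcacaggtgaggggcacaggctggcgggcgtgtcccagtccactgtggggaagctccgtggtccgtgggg
Lgals9, chr11:78984947-78985174, minus strand: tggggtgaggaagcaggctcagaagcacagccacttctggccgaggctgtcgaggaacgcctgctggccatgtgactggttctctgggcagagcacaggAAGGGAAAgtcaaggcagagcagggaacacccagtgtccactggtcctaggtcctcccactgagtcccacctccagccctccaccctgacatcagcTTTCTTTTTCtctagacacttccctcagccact
Lgals3bp, chr11:118401960-118401983, minus strand: gttttctgaaAATCGAAActaggt
Of the 32851 promoters of this length, 2.98% hold the interferon-stimulated response element, 21.3% the interferon regulatory factor element, 17.1% the Smad box, 10.6% the PU.1 site, 7.02% the gamma-activated site, 6.75% the AP-1 site and 66.2% the E-box. Lgals9 held 1 interferon-stimulated response element, 55 bases before its start, and Lgals3bp held 1 interferon regulatory factor element, 14 bases before its start. Lgals3 held neither of these and no gamma-activated, AP-1 or PU.1 site in its window, and Lgals8 held none of the 7 motifs. These matches are descriptions of letters and were not tested as binding sites.

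The levels are given in TPM (a share of all transcripts, scaled for transcript length and to the same total in each library, as the authors computed it), so they can be compared between genes. Differences are given in log2(TPM + 1) with their standard error (SE), from 1 limma model of all 32 libraries over 12817 genes. Those genes reached 1 TPM in 4 or more libraries, and a gene is said to be called where its p, adjusted over all of them by the Benjamini-Hochberg method, was under 0.05. All 6 genes passed that filter. A library had 10399 to 12877 genes at 1 TPM or more, mitochondrial genes held 31.9% to 46.9% of TPM, and the ratio of coverage to FPKM, a relative measure of depth, ran from 6.78 to 13.7. Col6a2 was between 6.60 and 51.2 TPM in the WT libraries and at most 0.171 TPM in the Col6a2-/- libraries, where 4 libraries were listed at 0. All 8 genes of a list of mature fibre markers passed the filter, with summed levels between 18920 and 30110 TPM. At 5 weeks 3 of the 8 were called lower in Col6a2-/- muscle (Ckm, Myh4 and Tnnt3, by 0.33, 0.43 and 0.32), where 2.14% of all genes were called lower. None was called higher, but the differences of the 8 ran from -0.43 to 0.45, with a median of 0.007. The count called in either direction was 1 with quantile normalization and 4 with median-of-ratios scaling. For the 8 genes together the median sum was 23100 TPM in Col6a2-/- and 28000 TPM in WT muscle at that age; their part in the galectin differences was not tested. Replicates 2 and 4 of the 5-week Col6a2-/- females stood apart, with the lowest mean correlations to their own group (0.957 and 0.961). Without both, the 5-week genotype differences described below were 3.06 for Lgals3, 1.12 for Lgals3bp, 0.75 for Lgals9, 0.69 for Lgals1, 0.31 for Lgals8 and 0.30 for Lgals4. The list counts at 5 weeks then changed for fibroblast genes (from 6 to 4), macrophage genes (from 17 to 16) and glycan branching genes (from 6 to 5).

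Lgals1 was the most abundant galectin in every library, from 83.2 to 259.5 TPM with a median of 141.8. Of the summed TPM of the family (Lgals3bp left out, and the related genes Lgals12 and Lgalsl included), Lgals1 held a median of 74.9% in WT and 75.3% in Col6a2-/- muscle at 5 weeks, and 75.1% and 76.6% at 25 weeks. The share of Lgals3 differed between the genotypes: its median share was 0.858% in WT and 6.93% in Col6a2-/- muscle at 5 weeks, and 0.916% and 3.27% at 25 weeks. That of Lgalsl was 13.8% in WT and 8.27% in Col6a2-/- muscle at 5 weeks, and 14.2% and 10.7% at 25 weeks. A share also moves with the other genes of the sum. The level of Lgalsl itself had a median of 22.5 TPM in WT and 22.4 TPM in Col6a2-/- muscle at 5 weeks, and 22.1 and 19.5 TPM at 25 weeks. The remaining members were low. Lgals8 had a median of 8.70 TPM over the 32 libraries, Lgals3bp 6.68, Lgals9 5.27, Lgals3 3.76 and Lgals4 1.69.

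Lgals3 (galectin-3; ENSMUSG00000050335, chr14:47367751-47386160, plus strand) was higher in Col6a2-/- muscle in each age and sex, and the genotypes did not overlap within any age and sex. Of all genes tested, every Col6a2-/- library lay above every WT library for 8.53% (females) and 9.32% (males) at 5 weeks, and for 3.80% (females) and 13.9% (males) at 25 weeks. In 5-week females it was 24.2, 26.4, 15.4 and 7.91 TPM in the 4 Col6a2-/- mice and 1.11, 1.06, 1.33 and 1.38 TPM in the 4 WT mice. In 5-week males it was 24.3, 19.9, 18.2 and 15.9 TPM in Col6a2-/- and 1.34, 1.26, 2.46 and 1.87 TPM in WT. Even the lowest 5-week Col6a2-/- library, female replicate 4, lay above the highest WT library of that age, a male at 2.46 TPM. In 25-week females Lgals3 was 5.58, 5.29, 4.14 and 7.63 TPM in Col6a2-/- and 3.38, 1.68, 1.92 and 1.11 TPM in WT. In 25-week males it was 8.28, 5.29, 6.86 and 4.63 TPM in Col6a2-/- and 1.67, 1.01, 0.954 and 2.05 TPM in WT. The gap was narrowest in 25-week females, where the highest WT mouse (3.38) lay just under the lowest Col6a2-/- mouse (4.14).

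**Figure D1:**
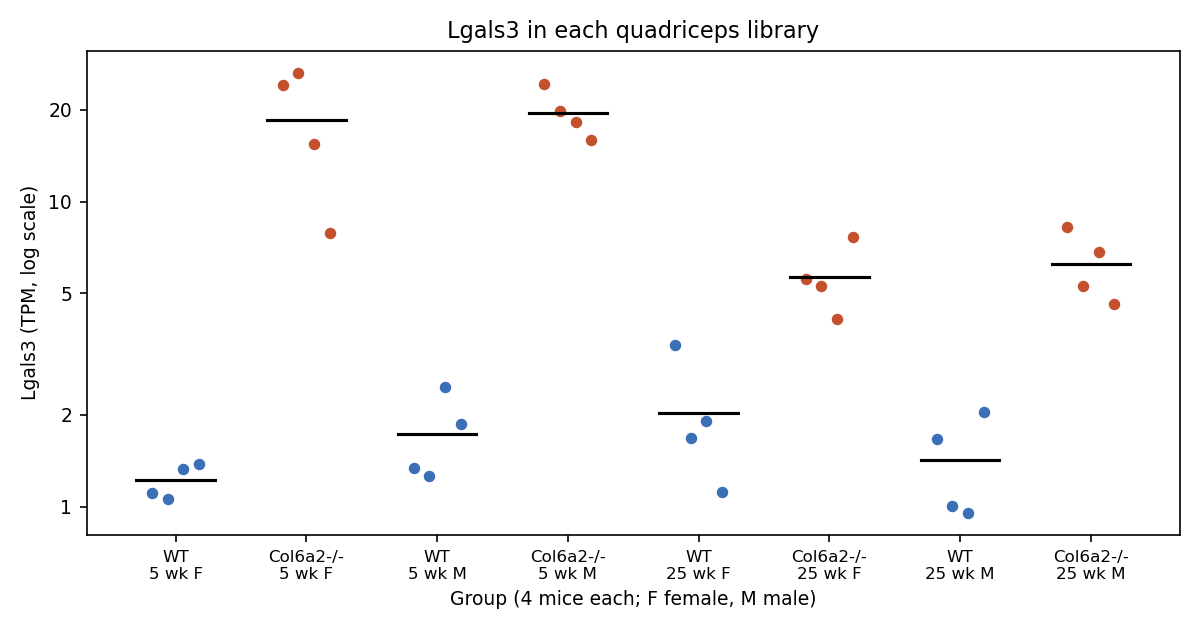
Lgals3 in TPM (log axis) in each of the 32 libraries, by group, with 4 mice per group and a black line at each group mean. The Col6a2-/- mice (orange) lie above the WT mice (blue) of the same age and sex in all 4 pairs of groups, with 7.91 to 26.4 TPM at 5 weeks and 4.14 to 8.28 TPM at 25 weeks.

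The mean of Lgals3 at 5 weeks was 19.0 ± 6.06 TPM in Col6a2-/- and 1.48 ± 0.467 TPM in WT muscle (SD, n = 8), a ratio of 12.9, and the difference was 2.96 (SE 0.181) in log2(TPM + 1). At 25 weeks the means were 5.96 ± 1.47 and 1.72 ± 0.789 TPM (SD, n = 8), a ratio of 3.47. By sex the ratio at 5 weeks was 15.2 for females and 11.3 for males, and at 25 weeks 2.80 for females and 4.41 for males. The smaller ratio at 25 weeks came with a lower level in Col6a2-/- muscle, by 1.48 (SE 0.181), while WT muscle differed between the ages by 0.11 (SE 0.181; limma adjusted p 0.727). With the sexes together, all 8 Col6a2-/- mice lay above all 8 WT mice of their age for Lgals3, as for 1.18% of the genes tested at 5 weeks and 0.663% at 25 weeks.

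Lgals3 ran closest to genes of macrophages. Over the 32 libraries the 5 genes with the highest Pearson r to Lgals3 in log2(TPM + 1) were Ctss (a lysosomal protease of antigen-presenting cells, r = 0.981), Mpeg1 (a pore-forming protein of phagocytes, 0.963), Lyz2 (lysozyme, 0.959), Itgax (the integrin CD11c, 0.953) and Pld4 (0.946). The libraries share their groups, so these values are largely set by genotype and age. After the mean of each group was taken away, the 5 closest were C1qb (a complement subunit, 0.897), Ctss (0.885), Adgre1 (the macrophage marker F4/80, 0.884), Pld4 (0.883) and Ctsz (0.882). These correlations are a description over 32 libraries, and depth and muscle composition are shared by all genes of a library.

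All 17 genes of a macrophage list rose in Col6a2-/- muscle at 5 weeks, 2 of which (Cx3cr1 and Fcgr1) passed the filter only through that group, with differences from 0.47 to 2.17 and a median of 1.17, against a median of 0.15 over all genes and 23.2% of genes called higher. The 4 with the smallest limma p were Ctss (2.17, SE 0.171, limma adjusted p 2.48e-10), Mpeg1 (1.59, SE 0.148, adjusted p 8.25e-09), Lyz2 (1.97, SE 0.186, adjusted p 1.17e-08) and C1qb (1.37, SE 0.169, adjusted p 1.05e-06). The gene lists, like the members, were chosen with earlier results of these data known. The p of list genes between the genotypes, here and below, therefore only order the genes and are no independent test. Lgals3 differed by more than any of the 17 at that age. At 25 weeks, where 4.47% of genes were called higher, 13 of the 17 rose, with a median of 0.72, and the highest were Ctss and Lyz2, both at 1.19; the count was 8 without replicate 1 of the 25-week Col6a2-/- females or replicate 1 of the 25-week Col6a2-/- males. In bulk muscle, more macrophages and more RNA of these genes per macrophage cannot be told apart.

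The summed level of the 17 macrophage genes was between 83.8 and 142.4 TPM in WT and between 134.6 and 467.0 TPM in Col6a2-/- muscle at 5 weeks, and between 58.3 and 153.4 TPM and between 144.1 and 265.9 TPM at 25 weeks. Adgre1 went from a median of 2.39 TPM in WT to 9.76 TPM in Col6a2-/- muscle at 5 weeks, and Cd68 from 2.33 to 8.18 TPM. Lgals3 is also given relative to that sum, a ratio that follows from the values above. Lgals3 differed by more than each macrophage gene at 5 weeks, and at 25 weeks too (1.38 against at most 1.19). There were 0.953 to 1.73 TPM of Lgals3 per 100 TPM of macrophage genes in WT (median 1.43) and 4.92 to 7.21 in Col6a2-/- muscle (median 5.52) at 5 weeks. At 25 weeks there were 1.24 to 2.47 in WT (median 1.81) and 2.60 to 3.60 in Col6a2-/- muscle (median 3.24). The genotypes did not overlap in this ratio at either age. The share of all genes with such a gap is not given here, so nothing is read from it. The 5-week Col6a2-/- female replicate 4, lowest of its group in Lgals3, was also lowest in macrophage genes (134.6 TPM), and its ratio of 5.88 lay within the range of the other 7 mice. The part of the macrophage genes in the Lgals3 difference was not tested.

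**Figure D2:**
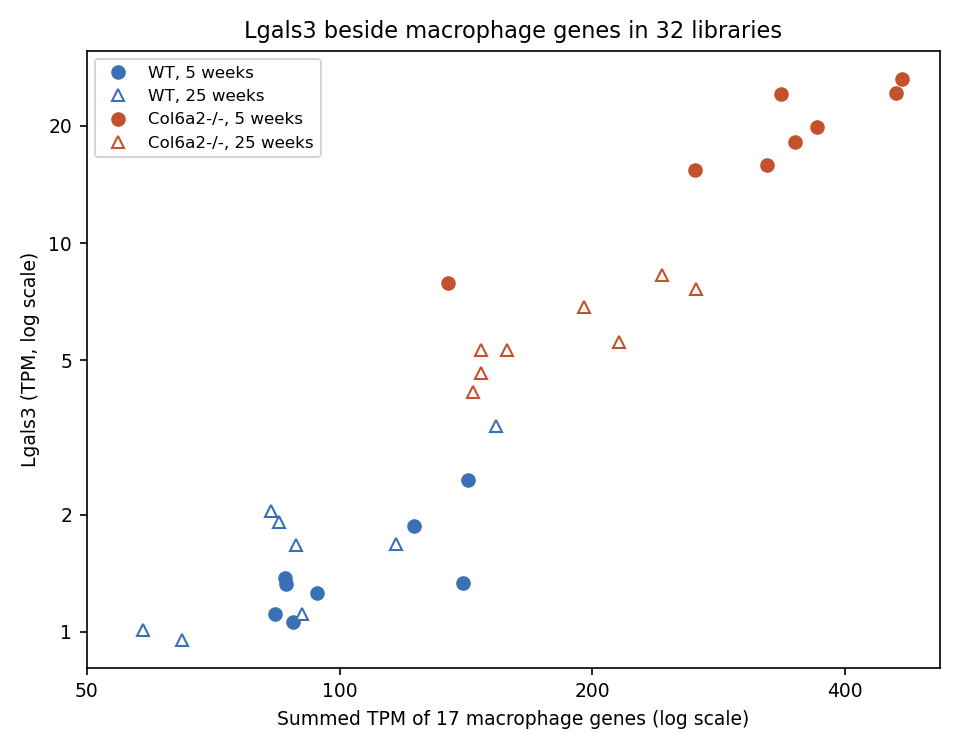
Lgals3 in TPM against the summed TPM of 17 macrophage genes (both log axes), one point for each of the 32 libraries. Lgals3 is higher where macrophage genes are higher, and the 5-week Col6a2-/- libraries (filled orange) have 4.92 to 7.21 TPM of Lgals3 per 100 TPM of macrophage genes against 0.953 to 1.73 in the 5-week WT libraries (filled blue).

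A list of 10 genes that mark lipid-handling and phagocytic macrophages rich in galectin-3 was also measured, although muscle fibres and other cells also express several of them. At 5 weeks 9 of the 10 rose, where 23.2% of all genes were called higher. Their differences had a median of 0.58 against 0.15 over all genes, and the highest was 1.12. The smallest p were those of Gpnmb, a glycoprotein of phagocytes (0.92, SE 0.133, limma adjusted p 1.01e-05), and Ctsb, a lysosomal protease (0.56, SE 0.0862, limma adjusted p 2.77e-05). At 25 weeks, where 4.47% of all genes were called higher, 4 of the 10 rose: Gpnmb by 0.79, Apoe by 0.75, Cd9 by 0.65 and Ctsb by 0.38. The median of the 10 was 0.40 against 0.08 over all genes, and the lowest was -0.02. Of the other blood cells, all 7 lymphocyte genes fell under the filter, with a summed level of at most 1.46 TPM in any library; its median at 5 weeks was 0.158 TPM in WT and 0.799 TPM in Col6a2-/- muscle. The sum of the neutrophil genes had a median of 0.712 TPM in WT and 1.73 TPM in Col6a2-/- muscle at that age. Of 6 neutrophil genes 2 were tested, neither was called by limma at either age (unadjusted p under 0.05 for 0 at 5 weeks and 1 at 25 weeks; 1 was called at 25 weeks with median-of-ratios scaling, with only the 25-week groups fitted, without both libraries that stood apart, or without any one of 7 libraries, namely 25-week WT female replicate 1, 5-week Col6a2-/- female replicate 2 or 4, 5-week Col6a2-/- male replicate 2 or 4, and 25-week Col6a2-/- female replicate 2 or 3), and the neutrophil marker Ly6g was listed at 0 in all 32 libraries. Of 7 genes of regenerating fibres tested, 3 (Myf5, Mymk and Mymx) passed the filter only through the 5-week Col6a2-/- libraries. Of the other 4, 3 rose at 5 weeks, among them Myh3, the embryonic myosin (2.37, SE 0.159, limma adjusted p 7.26e-12), which rose at 25 weeks too. Fibroblast genes rose for 6 of 12 at each age, where 23.2% and 4.47% of all genes did.

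Lgals3bp (ENSMUSG00000033880, chr11:118392751-118402092, minus strand) had the next largest genotype difference. At 5 weeks it was 16.5, 16.3, 11.9 and 6.87 TPM in Col6a2-/- females and 6.50, 3.52, 6.84 and 6.65 TPM in WT females, and 27.7, 10.4, 15.2 and 10.2 TPM in Col6a2-/- males and 8.30, 6.74, 5.90 and 5.09 TPM in WT males. Within each sex Col6a2-/- lay above WT at that age, as for 8.53% (females) and 9.32% (males) of all genes tested. Female replicate 4 (6.87) only just cleared the highest WT female (6.84). The ratio of means was 2.32 (14.4 ± 6.36 against 6.19 ± 1.41 TPM, SD, n = 8) and the difference 1.03 (SE 0.186). At 25 weeks Lgals3bp was 6.59 ± 1.15 TPM in Col6a2-/- and 4.98 ± 1.33 TPM in WT muscle (SD, n = 8), a difference of 0.36 (SE 0.186), and the genotypes overlapped.

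Lgals9 (galectin-9; ENSMUSG00000001123, chr11:78962974-78984946, minus strand) was 12.2, 14.3, 9.38 and 4.86 TPM in 5-week Col6a2-/- females and 4.01, 4.17, 5.72 and 6.36 TPM in WT females. In 5-week males it was 14.5, 9.86, 13.7 and 11.5 TPM in Col6a2-/- and 8.62, 8.46, 8.03 and 7.53 TPM in WT. The Col6a2-/- males lay above the WT males, as for 9.32% of all genes tested, and in females the Col6a2-/- replicate 4 lay inside the WT range. Over both sexes the means were 11.3 ± 3.23 and 6.61 ± 1.85 TPM (SD, n = 8), a ratio of 1.71 and a difference of 0.68 (SE 0.127). At 25 weeks females had 6.01, 4.86, 4.57 and 4.78 TPM in Col6a2-/- and 5.08, 4.96, 5.07 and 4.41 TPM in WT. The 25-week males had 5.66, 4.46, 5.27 and 5.27 TPM in Col6a2-/- and 3.31, 3.64, 3.76 and 3.83 TPM in WT. At that age the Col6a2-/- males lay above the WT males, as for 13.9% of all genes tested. The females overlapped, with a difference of 0.04 (SE 0.179) that turned negative, to -0.01, with median-of-ratios scaling.

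Interferon-induced genes are set beside Lgals3bp and Lgals9 here. All 12 genes of an interferon list rose in Col6a2-/- muscle at 5 weeks, with a median of 0.84 and a range from 0.42 to 1.20, where 23.2% of all genes were called higher and the median of all genes was 0.15. None of the 12 was called at 25 weeks by limma (unadjusted p under 0.05 for 2), where the median was 0.22 against 0.08 over all genes, and 2 were called without the 2 libraries that stood apart or with only the 25-week groups fitted, and 1 without 25-week WT male replicate 1 or 4, without 5-week Col6a2-/- female replicate 4, or with the replicate number as a block. The differences of the 12 at 25 weeks ran from 0.09 to 1.14. The change of the genotype difference with age was called by limma for 1 of the 12 (unadjusted p under 0.05 for 9), where 0.492% of all genes were called. That count was between 0 and 8 in the fits that left out 1 library. The smallest p at 5 weeks were those of Irf7, a transcription factor of the interferon response (1.16, SE 0.158, limma adjusted p 4.57e-06), and Usp18, its feedback inhibitor (0.72, SE 0.125, limma adjusted p 1.2e-04). Oasl2 rose by 0.88 (SE 0.157, limma adjusted p 1.72e-04) and Rsad2 by 0.81 (SE 0.148, limma adjusted p 2.36e-04). The summed level was 32.4 to 76.5 TPM in WT and 43.9 to 194.4 TPM in Col6a2-/- muscle at 5 weeks. The lowest of these Col6a2-/- values, 43.9 TPM, was again that of female replicate 4, which had the lowest Lgals9 and Lgals3bp of its genotype and age. The genes closest to Lgals9 over the 32 libraries were Sdc3 (a heparan sulfate proteoglycan, r = 0.969), Bst2 (the interferon-induced tetherin, 0.968), Rnf213 (0.964), Tmsb10 (0.962) and Tubb5 (0.959). Those closest to Lgals3bp were Btg1 (0.940), the interferon-induced Oas1g (0.915) and Oas1a (0.914), Tspo (0.914) and Ctsz (0.911). Lgals3bp and Lgals9 were the pair of members with the highest r, 0.856, and it was 0.711 after the group means were taken away. Whether interferon genes and these 2 members share a source was not tested.

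**Figure D3:**
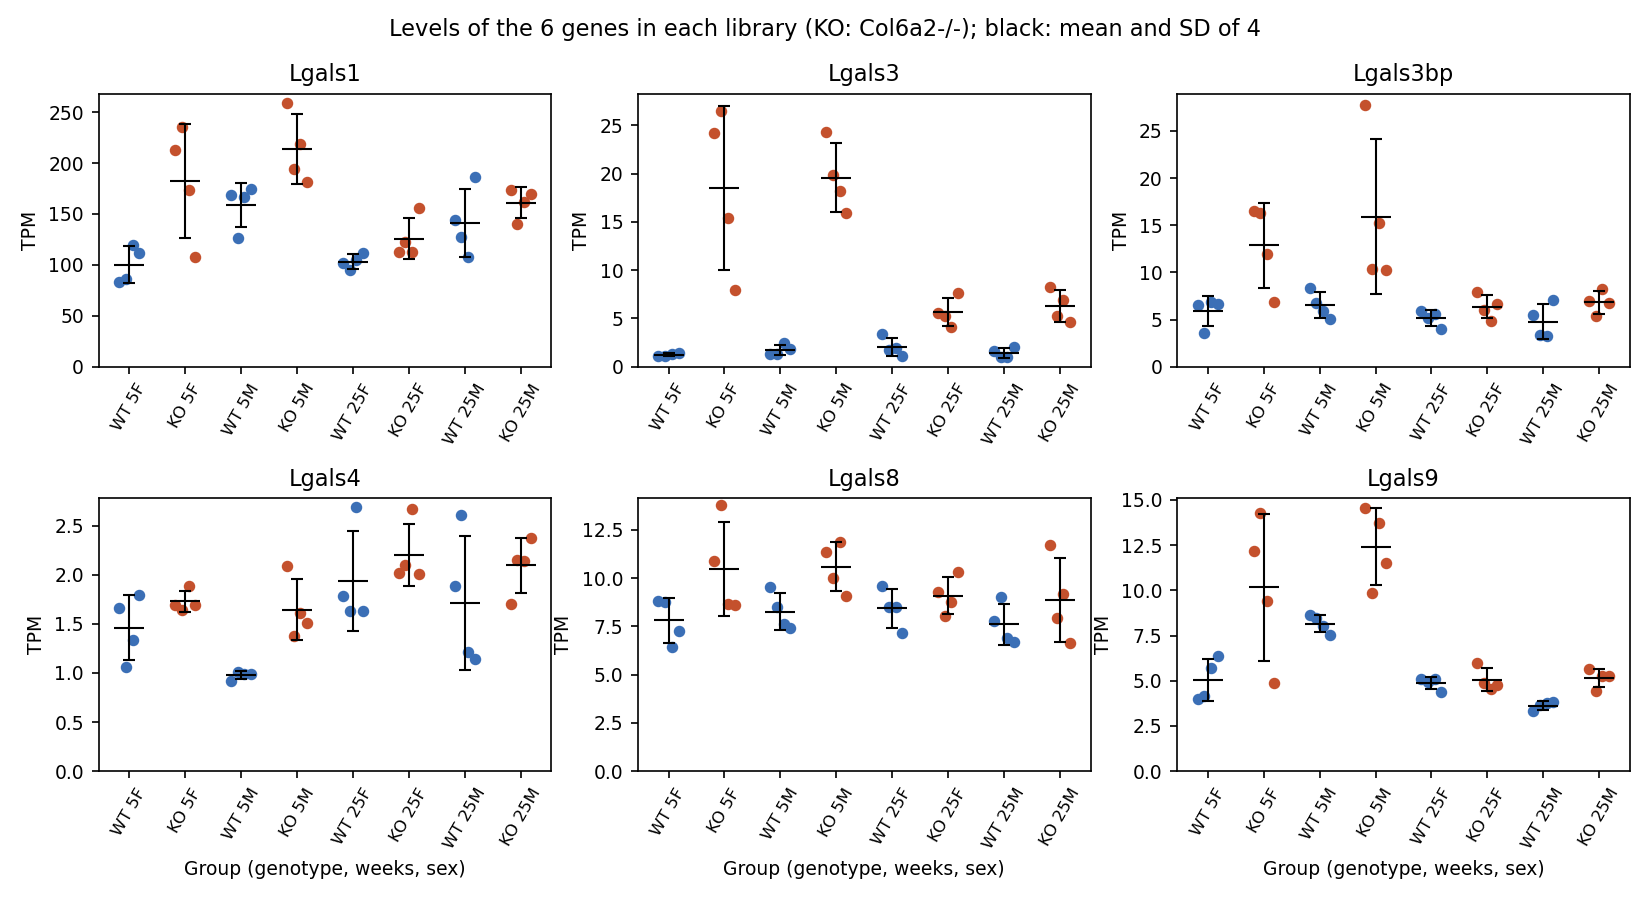
TPM of each of the 6 genes in every library, by genotype (KO: Col6a2-/-), age in weeks and sex, with the mean and SD of the 4 mice in black; each panel has its own axis from 0. Lgals3 separates the genotypes in each age and sex, Lgals3bp and Lgals9 are highest in 5-week Col6a2-/- muscle, and Lgals4 and Lgals8 overlap between most groups.

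Lgals1 (galectin-1; ENSMUSG00000068220, chr15:78926725-78930465, plus strand) was higher in Col6a2-/- muscle on average. The Col6a2-/- mice lay above WT in 5-week males (181.7 to 259.5 against 126.8 to 174.1 TPM), as for 9.32% of all genes tested. They also did in 25-week females (112.6 to 155.4 against 94.9 to 111.7 TPM), as for 3.80% of all genes tested. The genotypes overlapped in the other 2 pairs of groups and with the sexes together. At 5 weeks it had 108.1, 203.8 and 259.5 TPM in Col6a2-/- muscle (lowest, median and highest of 8) and 83.2, 123.2 and 174.1 TPM in WT muscle, and 6 of the 8 Col6a2-/- mice lay above every WT mouse. The ratio of means was 1.53 (198.1 ± 45.9 against 129.5 ± 36.6 TPM, SD, n = 8) and the difference 0.62 (SE 0.131). At 25 weeks it had 112.6, 147.6 and 174.0 TPM in Col6a2-/- muscle and 94.9, 110.0 and 186.6 TPM in WT muscle, and the highest library of the age was a WT male. The difference at that age was 0.24 (SE 0.131), and 0.11 with median-of-ratios scaling; in 25-week males it was 0.21 and, with that scaling, -0.0024. The genes closest to Lgals1 were Dupd1 (a phosphatase of muscle, r = 0.892), Cbr2 (0.881), Sh3bp2 (0.866), Cndp2 (0.864) and Gramd3 (0.858).

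Lgals1 was the member called between the sexes over all ages and genotypes. It was higher in males by 0.43 (SE 0.0928, limma adjusted p 0.00558), and the male mean was above the female mean in each of the 4 pairs of groups. In WT muscle the means were 159.0 ± 21.7 TPM in males and 100.0 ± 18.3 TPM in females at 5 weeks, and 141.4 ± 33.4 and 103.3 ± 6.97 TPM at 25 weeks (SD, n = 4). In Col6a2-/- muscle they were 213.7 ± 34.3 and 182.5 ± 55.7 TPM at 5 weeks, and 161.2 ± 15.1 and 125.7 ± 20.3 TPM at 25 weeks (SD, n = 4). At 5 weeks the WT males and females did not overlap, while the Col6a2-/- males and females did. In WT muscle at 5 weeks the sexes did not overlap for Lgals9 either (7.53 to 8.62 TPM in males, 4.01 to 6.36 in females) or for Lgals4 (0.921 to 1.01 TPM in males, 1.06 to 1.79 in females). At 25 weeks Lgals9 was the other way round in WT, at 3.31 to 3.83 TPM in males and 4.41 to 5.08 TPM in females. The share of all genes that separate the sexes in this way is not given here, so nothing is read from these gaps. Across the genes tested 3.05% were called between the sexes. The other members had differences from -0.13 to 0.16 and limma adjusted p from 0.402 to 0.952. The genotype difference was not called as differing between the sexes for any member (limma adjusted p 1 for each, and unadjusted p under 0.05 for 0 of 6), in a comparison that called 0.0156% of genes.

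Lgals8 (galectin-8; ENSMUSG00000057554, chr13:12439415-12464944, minus strand) varied little. It had 8.60, 10.4 and 13.8 TPM in Col6a2-/- muscle (lowest, median and highest of 8) and 6.42, 8.06 and 9.54 TPM in WT muscle at 5 weeks, a difference of 0.34 (SE 0.103). At 25 weeks it had 6.63, 8.97 and 11.7 TPM in Col6a2-/- and 6.67, 8.13 and 9.56 TPM in WT muscle, a difference of 0.14 (SE 0.103), which was 0.02 with median-of-ratios scaling, and -0.01 with that scaling in males alone. At 5 weeks that scaling gave 0.15. The genotypes overlapped at both ages. Lgals8 lies across from Heatr1, which is on the opposite strand and had at most 5.13 TPM; use of strand is not given in the sources used here, so some reads could belong to either gene.

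Lgals4 (galectin-4; ENSMUSG00000053964, chr7:28833854-28841708, plus strand) was near the filter, between 0.921 and 2.69 TPM. At 5 weeks it had 1.37, 1.67 and 2.09 TPM in Col6a2-/- muscle (lowest, median and highest of 8) and 0.921, 1.04 and 1.79 TPM in WT muscle, a difference of 0.29 (SE 0.0950). The 4 WT males of that age lay between 0.921 and 1.01 TPM, below all 4 Col6a2-/- males (1.37 to 2.09 TPM), as for 9.32% of all genes tested. The females overlapped, and their difference of 0.16 became -0.05 with quantile normalization. At 25 weeks the difference was 0.18 (SE 0.0950), and 0.09 and 0.05 with median-of-ratios scaling and quantile normalization. At 5 weeks these gave 0.16 and 0.11. Lgals4 shared the least with the other members over the libraries, with r from -0.21 to 0.24. Among its closest genes were Dusp18 (r = 0.760), Thpo (0.712) and Il15 (0.700). Of 7 gut epithelium genes only Krt8, a keratin of simple epithelia, passed the filter, and only through the 5-week Col6a2-/- libraries. It was at 0.505 to 2.75 TPM in those 8, listed at 0 in all 8 WT libraries of that age, and at most 0.0957 TPM at 25 weeks. The gut cadherin Cdh17 was listed at 0 in all 32 libraries. The tables do not name Lgals6, a close copy of Lgals4 in some mouse strains, and reads of such a copy could not be told apart here.

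**Figure D4:**
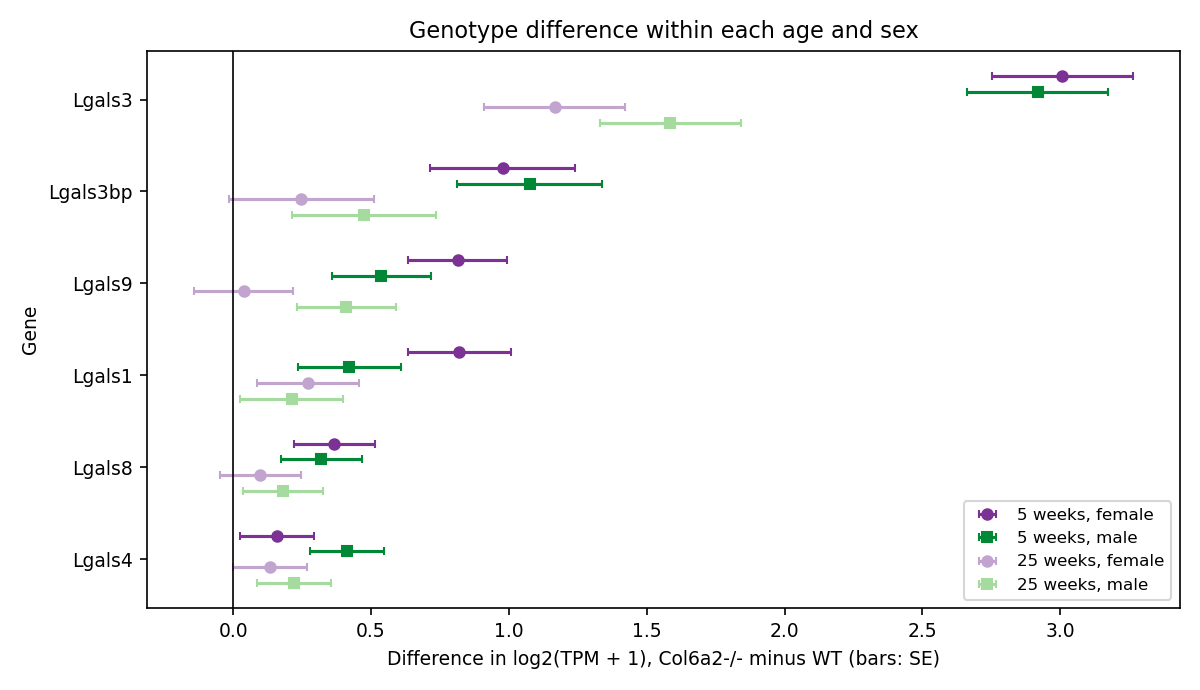
Difference between Col6a2-/- and WT in log2(TPM + 1) for each gene within each age and sex, with the SE as bars; 0 means no difference. Lgals3 lies between 2.92 and 3.01 at 5 weeks and between 1.17 and 1.59 at 25 weeks, and each other gene lies nearer to 0 at 25 weeks than at 5 weeks in females, and in males.

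Over the members, limma called all 6 higher in Col6a2-/- muscle at 5 weeks, where it called 25.4% of all genes (23.2% higher), and only Lgals3 at 25 weeks, where it called 4.70% (4.47% higher). Since the members were chosen with these differences known, nothing is read from the counts. The whole distribution was shifted at 5 weeks, by a median of 0.15 over all genes. Median-of-ratios scaling moved that median to -0.01, and it called 4 of the 6 members, while calls over all genes went from 3253 to 3038. Relative to the median of all genes, the 5-week differences were 2.82 for Lgals3, 0.88 for Lgals3bp, 0.53 for Lgals9, 0.48 for Lgals1, 0.20 for Lgals8 and 0.14 for Lgals4. Within sexes at 5 weeks 4 members were called in females (12.9% of genes) and 2 in males (5.03%). With only the 5-week female groups fitted, 1 member was called in females, and calls over all genes went from 1648 to 108. Without mitochondrial genes and Rn7s 5 members were called in males, and calls over all genes went from 645 to 1446. Leaving out WT 5-week male replicate 4 gave 1 member in males, and calls over all genes in that fit are not given here. At 25 weeks none was called by limma in females (unadjusted p under 0.05 for 1), where 0.0078% of genes were, and 1 in males (3.03%). The difference between the ages in the genotype effect was called for Lgals3 alone, at -1.59 (SE 0.256), among 0.492% of genes, and the other members had values from -0.67 to -0.11. In Col6a2-/- muscle itself 4 members were lower at 25 than at 5 weeks, by 1.48 for Lgals3, 0.96 for Lgals9, 0.94 for Lgals3bp and 0.44 for Lgals1, in a comparison that called 34.2% of genes, and 28.8% as lower. With median-of-ratios scaling the Lgals1 difference between these ages was -0.25.

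In WT muscle, age changed 2 members, where limma called 19.8% of all genes. Lgals9 fell from 6.61 ± 1.85 TPM at 5 weeks to 4.26 ± 0.714 TPM at 25 weeks (SD, n = 8), by 0.51 (SE 0.127, limma adjusted p 0.00518). Lgals4 rose from 1.22 ± 0.337 to 1.82 ± 0.571 TPM (SD, n = 8), by 0.34 (SE 0.0950, limma adjusted p 0.0123). The rise of Lgals4 was 0.56 without mitochondrial genes and Rn7s. The other 4 had differences from -0.27 to 0.11 and limma adjusted p from 0.338 to 0.983. The change of Lgals9 with age was also fitted within each sex, in comparisons added after its values were seen. In WT males it was 7.53 to 8.62 TPM at 5 weeks and 3.31 to 3.83 TPM at 25 weeks. That was a fall by 0.98 (SE 0.179, limma adjusted p 1.89e-04), where 28.6% of genes were called and the median of all genes was -0.21. In WT females it was 4.01 to 6.36 TPM at 5 weeks and 4.41 to 5.08 TPM at 25 weeks, a difference of -0.03 (SE 0.179, limma adjusted p 0.973), where 1.84% of genes were called. Lgals4 was called by limma in WT males too (adjusted p 0.0197), a call lost without WT 5-week male replicate 1, WT 25-week male replicate 1 or 2, or with only those groups fitted (adjusted p from 0.00141 to 0.125 over the alternatives), and no member was in WT females (unadjusted p under 0.05 for 0). The test of the sex difference in the age effect, over both genotypes, gave -0.63 (SE 0.179, limma adjusted p 0.0462, with 3.43% of genes called and a median of -0.19 over all genes); over the alternative fits its adjusted p ran from 0.00419 to 0.137, and the call was lost in 28 of 41 alternatives, 23 of them fits that left out 1 library, and the others including no filter, FPKM, median-of-ratios scaling and quantile normalization, so it is not a firm difference.

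Receptors and glycoproteins that galectins are known to bind were also measured. Of 15 such genes 12 were tested, and 9 rose in Col6a2-/- muscle at 5 weeks (23.2% of all genes) and 4 at 25 weeks (4.47%), with medians of 0.36 and 0.24 against 0.15 and 0.08 over all genes. At 5 weeks, among the 8 that did not pass the filter only through the 5-week Col6a2-/- libraries, the smallest p were those of Ptprc (the leukocyte phosphatase CD45; 1.52, SE 0.191, limma adjusted p 1.43e-06) and Cd44 (a hyaluronan receptor; 0.93, SE 0.147, limma adjusted p 3.43e-05). The ninth, Trem2, a lipid receptor of macrophages, passed only through them and was low in both genotypes, at 1.08 ± 0.398 TPM in Col6a2-/- and 0.155 ± 0.168 TPM in WT muscle (SD, n = 8). The 4 at 25 weeks were Fn1 (fibronectin, 1.35), Cd44 (0.86), Ptprc (0.71) and Lamp2 (a lysosomal membrane protein, 0.37). The 5-week count was 4 with median-of-ratios scaling. At 25 weeks it was 2 without any one of 6 libraries: WT female replicate 3 or 4, WT male replicate 2, Col6a2-/- female replicate 1 or 4, or Col6a2-/- male replicate 1. Ptprc is a gene of leukocytes.

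Enzymes that build the branched N-glycans favoured by galectins rose for 6 of 9 tested genes at 5 weeks, with a median of 0.34 against 0.15 over all genes, of which 23.2% were called higher, and none was called at 25 weeks by limma (unadjusted p under 0.05 for 5); 3 were with only the 25-week groups fitted, 2 without both libraries that stood apart, and 1 with median-of-ratios scaling or without replicate 2 or 4 of the 5-week Col6a2-/- females. The change of the genotype difference with age was called by limma for none of the 9 (unadjusted p under 0.05 for 0), where 0.492% of all genes were called. At 5 weeks Man2a1, a Golgi mannosidase, rose by 0.60 (SE 0.110, limma adjusted p 2.32e-04), and Mgat2, which starts a branch, by 0.45 (SE 0.110, limma adjusted p 0.00410). Mgat5, which adds a branch that galectin-3 binds, was 1 of the 6 but passed the filter only through the 5-week Col6a2-/- libraries. Only 2 of them were called with median-of-ratios scaling and 3 with quantile normalization. The list of 16 genes for lysosome damage and its sensing by galectin-3 and galectin-8 had 3 higher (Mtor, Tfe3 and Prkaa1) and 1 lower (Prkaa2, a kinase subunit abundant in fibres) at 5 weeks, with differences between -0.32 and 0.33, so 4 of 16 were called where 25.4% of all genes were. None of the 4 was called when only the 5-week groups were fitted, and 1 was called without WT male replicate 3 or without Col6a2-/- male replicate 1. None of the 16 was called at 25 weeks by limma (unadjusted p under 0.05 for 2), and 3 were with median-of-ratios scaling.

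Other galectins added little. Lgalsl, which encodes a galectin-like protein without sugar binding, was at 16.8 to 26.5 TPM and Lgals12, the galectin of fat cells, at 0.0909 to 3.59 TPM, and neither was called by limma between the genotypes at either age (unadjusted p under 0.05 for 0 at 5 weeks and 1 at 25 weeks). With median-of-ratios scaling or quantile normalization, 1 of the 2 was called at each age. Lgals2 and Grifin were listed at 0 in all 32 libraries. Lgals7 was listed at 0 in 26 libraries and at no more than 0.262 TPM in the others.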

How the data were processed

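Bulk RNA from quadriceps of 32 mice was sequenced, 1 library per mouse, from libraries made with a TruSeq RNA kit, per the labels' protocols. The submitters' processing notes name FastQC, MultiQC, Trimmomatic, HISAT2, SAMtools and StringTie, and the builds GRCm38 and mm10, without versions. The authors deposited 1 gene table per library with TPM, which is scaled for transcript length and to the same total in each library. The deposited FPKM are scaled for transcript length and depth, and served as an alternative. The deposited coverage is the mean signal per base, and was used only to compare depth. Counts were not used here, so the depth is known only relative to the other libraries, and no interval for counting error is given.

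TPM of rows with the same gene ID were summed. The main values are log2(TPM + 1), with a pseudocount of 1, for the 12817 genes with 1 TPM or more in 4 libraries. They were fitted with limma 3.58.1 in R 4.3.3 (lmFit, then eBayes with a trend), with 1 mean for each of 8 groups. Tests were two-sided, with Benjamini-Hochberg adjustment over all genes and a threshold of 0.05. P-values weigh a difference of group means against the spread between mice within groups, which was estimated over all 8 groups and moderated across genes. The 6 genes and the gene lists were chosen with earlier results of these data known. Genes were named by rule: all members, up to 4 genes of a list with the smallest p in a comparison, defining cell type markers set beside a member, and the 5 genes with the highest Pearson r to a member. Some genes that this rule names are not reported here. Krt8 was named after its value was seen. Alternatives changed the pseudocount, filter, unit, scaling, libraries or groups fitted, or added the replicate number as a block, and the script was tested on simulated data. Member positions are from GENCODE M21 on GRCm38.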

Additional observations from a re-analysis of the deposited data

Results flagged for a closer look

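Of the 48 sets of 4 mice that were checked (6 genes in 8 groups), 4 had 1 mouse far from the other 3, a gap that chance gives in about 1 set of 20. Lgals1 was 126.8 TPM in WT 5-week male replicate 2, below 166.7 to 174.1 TPM in the other 3. Lgals3bp was 3.524 TPM in WT 5-week female replicate 2, below 6.503 to 6.842 TPM in the others. Lgals4 was 2.692 TPM in WT 25-week female replicate 3, above 1.631 to 1.781 TPM in the others. Lgals4 was also 2.665 TPM in Col6a2-/- 25-week female replicate 3, above 2.012 to 2.103 TPM in the others.

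The genotype difference of Lgals3 was smaller at 25 than at 5 weeks, by a difference of -1.588 in log2(TPM + 1), a value that was known when the gene was chosen. The change of Lgals9 with age was more negative in males than in females, by -0.6317, in a comparison added after its values were seen (limma adjusted p 0.0462, with a range from 0.00419 to 0.137 over the alternatives).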

How the results depend on the processing

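Of 918 values of the main results under the alternatives, 897 were kept, 21 moved and 0 called values reversed. A described difference counted as moved where it shifted by more than the spread between mice, a tested one where its call changed, and a count of called members where it changed by more than 1.5 times, so the 4 members called at 5 weeks with median-of-ratios scaling, and the 5 with quantile normalization, no filter or a filter of 5 TPM, are among the 897. With a pseudocount of 0.1 the difference of Lgals3 was 3.568 at 5 weeks (3.679 in females, 3.456 in males), 1.805 at 25 weeks and 2.097 in 25-week males; a smaller pseudocount widens differences of low genes by construction. Without mitochondrial genes and Rn7s the difference of Lgals3 in 5-week males was 3.35, and 5 of the 6 members were called there against 2, while calls over all genes went from 645 to 1446. When only the groups of a comparison were fitted, 2 members were called at 25 weeks, 1 in 5-week females and 2 in 25-week males. Calls over all genes there went from 603 to 1087, from 1648 to 108 and from 388 to 589. Without both 5-week Col6a2-/- females that stood apart, 1 member was called in 25-week females, 2 in 25-week males and 2 for the change of the genotype difference with age. In these 3 comparisons calls over all genes went from 1 to 6, from 388 to 1130 and from 63 to 135. With median-of-ratios scaling 1 member was called in 25-week females, among 13 genes. The cause was not tested. At a filter of 5 TPM 1 member was called with age in WT, because Lgals4 was no longer tested. Leaving out 1 library each time gave 5 to 6 members at 5 weeks, 1 at 25 weeks, 3 to 5 in 5-week females, 1 to 3 in 5-week males (1 without WT replicate 4 or Col6a2-/- replicate 1), 0 to 1 in 25-week females (1 without WT replicate 1 or 5-week Col6a2-/- female replicate 4), and 1 to 2 in 25-week males and for the change with age (2 without 5-week Col6a2-/- female replicate 4). Calls over all genes in the fits that left out 1 library are not given here, so nothing is read from these changes.

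The limma adjusted p ran from 5.97e-05 to 0.0193 for the fall of Lgals9 with age in WT, from 0.00178 to 0.0387 for the rise of Lgals4, and from 2.18e-04 to 0.0182 for the sex difference of Lgals1. Over all genes, calls at 25 weeks went from 603 to 1380 with median-of-ratios scaling, 1233 without both females and 1087 with only the 25-week groups, and calls at 5 weeks from 3253 to 1878 with only the 5-week groups. Replicate numbers were not treated as pairs. The median correlation of same-numbered deviations was 0.0356, and 1 of 28 pairs of groups had all of them over 0.1. Within a pair of groups the median ran from -0.10 (5-week WT males and 5-week Col6a2-/- females) to 0.27 (5-week WT males and 25-week Col6a2-/- males). The check cannot tell whether the numbers pair the mice of some groups. With the number as a block, 6 members were called at 5 weeks and 1 at 25 weeks, among 3293 and 658 genes. Fitting only the groups compared could not be run as an alternative for the comparisons that use all groups.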
